A study of Mus musculus with 6 samples.

Results

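The proteasome genes of the embryonic mouse brain were examined together with Ddi2 and Nfe2l1. The set held every gene whose symbol begins with Psma, Psmb, Psmc or Psmd and a digit, with pseudogene symbols left out, plus Ddi2 and Nfe2l1, which made 42 of the 24848 genes listed. Ddi2 was chosen by its own fold change between the groups in these libraries, and the remaining members by name, so the values of Ddi2 are described and carry no test. Messenger RNA had been sequenced from the brains of mouse embryos at stage E14.5, 3 labelled E4f1 knockout (KO) and 3 labelled wild type (WT). The E4F1 protein binds DNA through zinc fingers and regulates transcription, and the study asked what its loss does in the developing brain. Each brain came from an animal with its own number, but the labels name no allele, Cre driver, litter or sex, and do not say in which cells of the brain E4f1 was deleted. P-values set the difference between the groups against the spread among the 3 animals within each group. Without the litters, the independence of the 6 animals cannot be checked.

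The proteasome degrades proteins tagged with ubiquitin. Its core particle is a barrel of alpha and beta rings, with the proteolytic sites on 3 of the beta subunits, and its regulatory particle is made of a base, whose ATPases unfold the substrate, and a lid, which removes ubiquitin. When proteasome activity falls short, the membrane-bound transcription factor NFE2L1 is cleaved by the protease DDI2, enters the nucleus with a small MAF partner and raises the transcription of proteasome subunit genes through antioxidant response elements. Among the 42 members, 8 belonged to the alpha ring, 7 to the constitutive beta ring, 4 were catalytic beta subunits of immune or thymic tissue, 6 were base ATPases, 3 were non-ATPase base subunits or ubiquitin receptors and 8 were lid subunits. A further 3, Psmd5, Psmd9 and Psmd10, encode chaperones that assemble the base and leave the finished particle. Psmc3ip is a recombination cofactor that carries the name of the subunit it binds and is not itself a subunit.

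Total expected counts lay between 50186590 and 69068011 in the KO libraries and between 42113465 and 74064707 in the WT libraries. E4f1 stood at 7.12, 7.01 and 6.92 CPM (read counts brought to a common library total) in KO brains, against 20.7, 21.6 and 21.5 CPM in WT brains, which fits the labels. Transcript was left in KO brains, and the labels do not say which exons were removed. The edgeR test with Benjamini-Hochberg adjustment called 159 of 15848 tested genes at an adjusted p below 0.05, or 1.0% of them. Of the 42 members 41 were tested, and Psmb11 was too low.

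Ddi2 (chromosome 4, 141683563 to 141723419, GRCm38.p6) was the member that stood apart. It had 17.0, 19.3 and 19.4 CPM in KO brains, against 46.2, 41.7 and 48.9 CPM in WT brains. Every KO brain lay far below every WT brain, and the spread within each group was small beside the gap between them. The fold of KO over WT was 0.407, a log2 fold change of -1.30 ± 0.09 (SE, n = 3 each), and it stayed between -1.36 and -1.23 over the 20 alternative settings. The counts behind these values were 1218, 1102 and 988 in KO brains and 3442, 1716 and 3248 in WT brains.

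A protein-coding gene of the same strand, Rsc1a1, lies inside the last exon of Ddi2, and all 1749 of its exon bases overlap those of Ddi2. Its own expected counts were 169.6, 60.2 and 138.0 in KO brains, against 500.1, 133.5 and 224.6 in WT brains. These reads cannot be assigned with certainty to either gene, since RSEM shares them out by estimate. Rsc1a1 made up between 5.18% and 12.7% of the reads of the pair in a library, with no separation of the groups in that share. With both genes added together, the log2 fold change was -1.28 ± 0.09 and the fold 0.412. Taken alone, Rsc1a1 had a log2 fold change of -1.13 ± 0.45 and was not called (edgeR adjusted p = 0.243).

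Nfe2l1 (chromosome 11, 96817414 to 96829968), the transcription factor that DDI2 cleaves, had 186.5, 213.7 and 179.5 CPM in KO brains and 184.8, 193.1 and 173.6 CPM in WT brains. The groups overlapped. The log2 fold change was 0.07 ± 0.09 (edgeR adjusted p = 0.669), with a 95% interval of -0.14 to 0.28, so a difference of the size seen for Ddi2 lay outside it. On the per-length scale, Nfe2l1 averaged 112.1 ± 11.3 TPM (transcript abundance per length, brought to a common total) in KO brains and 106.8 ± 7.03 TPM in WT brains, while Ddi2 averaged 13.8 ± 0.84 TPM in KO brains and 34.6 ± 2.61 TPM in WT brains (SD, n = 3 each). Ddi1, the paralog of Ddi2, had no read in any library.

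**Figure D1:**
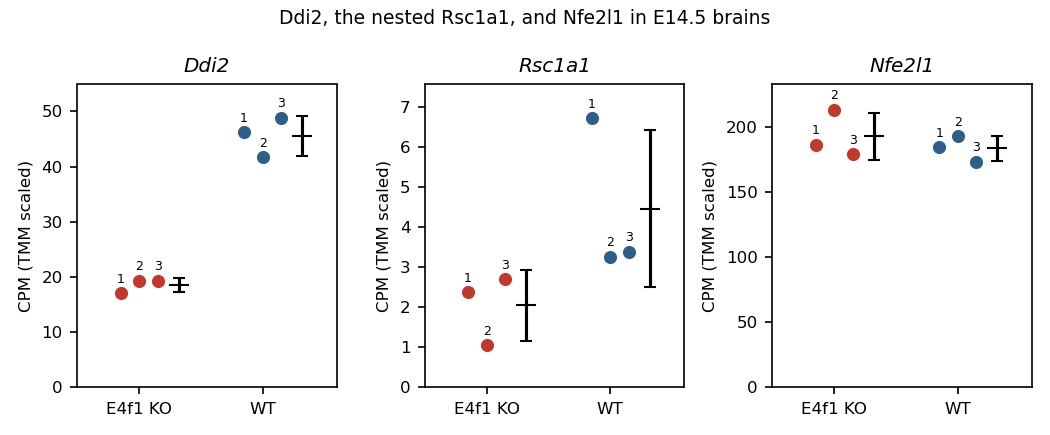
CPM after TMM scaling of Ddi2, of Rsc1a1, which lies within its last exon, and of Nfe2l1, in each E4f1 KO brain (red) and each WT brain (blue), with the replicate number beside each point and the mean ± SD as a bar. The KO points of Ddi2 lie between 17.0 and 19.4 CPM and its WT points between 41.7 and 48.9 CPM, while the groups of Nfe2l1 overlap.

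Since the mice carry a change in a transcription factor, and NFE2L1 acts through a known element, the promoters were read for both kinds of site. RefSeq promoter sequence of GRCm38.p6 was matched for 35 of the 42 members, giving 41 windows of 250 bases that end at the transcript start. Psma8, Psmb1, Psmb2, Psmb7, Psmc3, Psmd3 and Psmd7 had no window and were not searched. A pair of patterns was searched on both strands. TGACNNNGC is the core of the antioxidant response element, and TGACGT is the core shared by E4F sites and cAMP response elements; where the letters after TGAC allow it, a stretch can match both. The element TGACNNNGC was found in 5 of the 41 windows (12.2%), those of Psmb5, Psmb6, Psmc6, Psmd12 and Psmd9, against 10.2% of all 32851 promoter windows. TGACGT was found in 5 of the 41 windows (12.2%), those of Nfe2l1, Psma1, Psma5, Psmb5 and Psmd8, against 6.47% of all windows. The windows of 3 members are shown, with matched letters in capitals: that of Ddi2, the member that differed most, that of Psmb6, the subunit with the smallest p, and that of Psmb5, whose window matched both patterns at the same place. The windows are chr4:141723420-141723669 on the minus strand for Ddi2, chr11:70525107-70525356 on the plus strand for Psmb6 and chr14:54617996-54618245 on the minus strand for Psmb5.
Ddi2: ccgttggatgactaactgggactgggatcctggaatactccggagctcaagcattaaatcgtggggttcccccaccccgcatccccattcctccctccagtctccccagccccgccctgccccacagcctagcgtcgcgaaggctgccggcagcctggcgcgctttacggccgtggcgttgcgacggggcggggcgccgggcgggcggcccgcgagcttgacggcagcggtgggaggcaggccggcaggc
Psmb6: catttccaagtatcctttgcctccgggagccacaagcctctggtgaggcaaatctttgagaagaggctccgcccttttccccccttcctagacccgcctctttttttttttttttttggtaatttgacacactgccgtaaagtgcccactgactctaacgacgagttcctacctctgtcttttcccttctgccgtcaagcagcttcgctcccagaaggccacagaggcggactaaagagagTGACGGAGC
Psmb5: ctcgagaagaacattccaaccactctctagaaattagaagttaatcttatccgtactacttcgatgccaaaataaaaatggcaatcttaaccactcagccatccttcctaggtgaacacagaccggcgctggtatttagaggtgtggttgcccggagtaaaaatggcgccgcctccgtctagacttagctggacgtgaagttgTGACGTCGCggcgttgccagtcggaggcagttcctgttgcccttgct
The Ddi2 window held neither pattern. The match of Psmb6 began at position -9 and that of Psmb5 at position -47, counted from the transcript start of the promoter table. For Psmb6 that start differs from the gene start of 70525324 given below. Its window runs past 70525324 to 70525356, so by that gene start the match lies inside the gene and not upstream of it. A match describes letters and no binding was measured here. Psmb6 is described in detail below, and Psmb5 had a log2 fold change of -0.00090 ± 0.07, with a 95% interval of -0.17 to 0.17.

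Of the 40 tested members other than Ddi2, edgeR called 0 higher, against 0.511% of all tested genes, and 0 lower, against 0.492% of all tested genes. The smallest adjusted p among them was 0.160, and none was called by DESeq2, which called 9.12% of all genes it tested, or by limma-voom or limma on log2 TPM. At an unadjusted p below 0.05, 0 were higher and 2 were lower in KO brains, Psmb6 and Psmd7, while 19.6% of all tested genes passed that threshold. This split moved with the processing: 1 was higher (Psmb2) and 0 lower with library totals in place of TMM scaling, 0 higher and 5 lower with limma on log2 TPM, 1 higher (Psmb2) and 1 lower without WT 1, and 1 higher (Psmb9) and 5 lower without WT 2. Of the 40, 23 had a positive and 17 a negative log2 fold change, with a median of 0.03, and the median over all tested genes was -0.00077. The groups did not overlap for 2 members that were higher in KO brains (Psma8 and Psmb2) and for 5 that were lower (Psmb6, Psmc2, Psmd1, Psmd6 and Psmd7), which is 7 of 40 beside 27.6% of all tested genes.

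The absence of calls came with narrow limits for the 31 broadly expressed subunits, Psma1 to Psma7, Psmb1 to Psmb7 and the base and lid. Each was counted between 2177 and 21042 times in a library. Their log2 fold changes lay between -0.25 and 0.14, and their 95% intervals together spanned -0.43 to 0.31. Their coefficient of variation over all 6 libraries was between 3.71% (Psmd11) and 10.9% (Psmb6), with a median of 5.81%. Their mean levels differed by a factor of 3.37, the lowest being Psmd12 at 103.8 TPM and the highest Psma7 at 350.1 TPM.

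**Figure D2:**
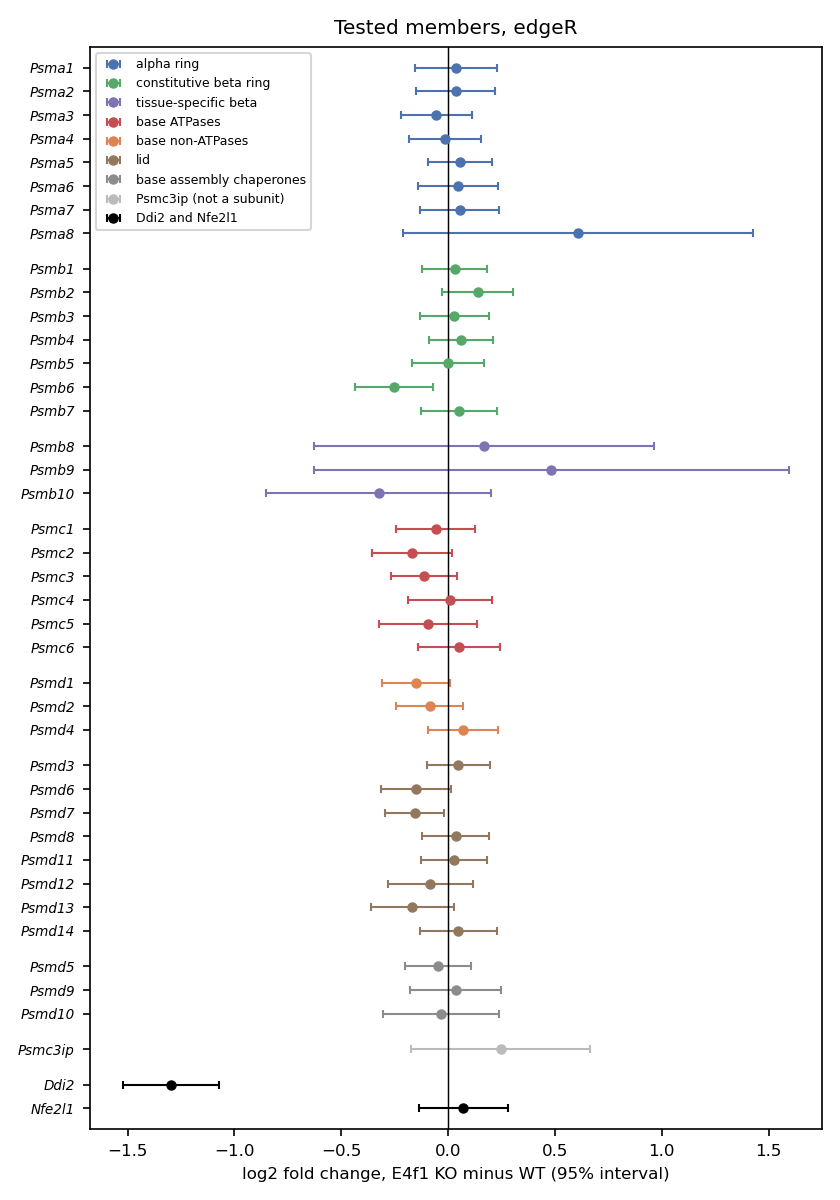
Log2 fold changes of KO over WT with 95% intervals from edgeR for the 41 tested members, coloured by their place in the proteasome. The intervals of the broadly expressed subunits cluster about 0, those of Psmb6 and Psmd7 lie below 0 before adjustment, and Ddi2 stands at -1.30.

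In the alpha ring, which gates the entry to the core, Psma7 was the most abundant member of all. It had 360.8, 360.2 and 344.8 TPM in KO brains, against 380.1, 321.9 and 332.5 TPM in WT brains. The WT brains lay on both sides of the KO brains, and the log2 fold change was 0.05 ± 0.08 (edgeR adjusted p = 0.718). The other broadly expressed alpha subunits had log2 fold changes between -0.06 and 0.06. Psma8, an alpha subunit known from the testis, was near the limit of detection, with 21, 20 and 28 counts in KO brains and 21, 11 and 15 counts in WT brains. Its level was 0.50, 0.59 and 0.91 TPM in KO brains, against 0.48, 0.46 and 0.38 TPM in WT brains. The groups just failed to overlap and the difference was not called (log2 fold change 0.61 ± 0.34, edgeR adjusted p = 0.365), with a 95% interval of -0.21 to 1.43.

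In the constitutive beta ring, Psmb5, Psmb6 and Psmb7 encode the 3 proteolytic subunits. Psmb6 (chromosome 11, 70525324 to 70527858), which carries the caspase-like site, had 85.9, 93.6 and 81.3 CPM in KO brains and 109.3, 100.3 and 101.1 CPM in WT brains. Each KO brain was below each WT brain. The log2 fold change was -0.25 ± 0.08, with a 95% interval of -0.43 to -0.07, and did not pass the adjustment (edgeR adjusted p = 0.160, and adjusted p between 0.0691 and 0.983 over the alternatives). It was -0.19 with library totals and -0.15 with the midbrain marker score as a covariate, and in these fits, without KO 1 and in WT 1, WT 2, KO 1 and KO 2 alone it did not pass even the unadjusted threshold. Psmb7, which carries the trypsin-like site, had 331.0, 320.0 and 325.8 TPM in KO brains, against 347.5, 300.7 and 307.0 TPM in WT brains, and a log2 fold change of 0.05 ± 0.07. Psmb5, with the chymotrypsin-like site, stood at 59.0, 61.0 and 57.5 CPM in KO brains and at 62.7, 55.1 and 59.6 CPM in WT brains. In both of these the groups overlapped, so that of the 3 proteolytic subunits Psmb6 alone had separate groups.

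Among the other beta subunits, Psmb4, a structural subunit, had 347.4, 352.4 and 346.9 TPM in KO brains, against 360.1, 325.2 and 332.0 TPM in WT brains, with a log2 fold change of 0.06 ± 0.06. Psmb2, also without proteolytic activity and named after its values were seen, had 72.6, 70.7 and 72.8 CPM in KO brains, against 70.5, 62.7 and 63.0 CPM in WT brains. Its groups were separated by a narrow gap below KO 2, and it was not called (log2 fold change 0.14 ± 0.07, edgeR adjusted p = 0.320).

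The catalytic beta subunits of the immunoproteasome, Psmb8, Psmb9 and Psmb10, replace Psmb5, Psmb6 and Psmb7 in cells exposed to interferon, and Psmb11 replaces Psmb5 in the thymic cortex. All were rare in these brains. Psmb8 had 1.6, 1.57 and 2.0 TPM in KO brains, against 1.04, 2.14 and 1.54 TPM in WT brains (log2 fold change 0.17 ± 0.33, edgeR adjusted p = 0.804). Psmb9 had 14, 11 and 13 counts in KO brains, against 8, 11 and 7 counts in WT brains (log2 fold change 0.48 ± 0.46, edgeR adjusted p = 0.588). Neither gene separated the groups, and at these counts the 95% interval of Psmb9 reached from -0.63 to 1.59. Psmb10 had 9.80, 10.3 and 8.66 TPM in KO brains, against 10.4, 16.0 and 10.1 TPM in WT brains (log2 fold change -0.33 ± 0.22, edgeR adjusted p = 0.441), and WT 2 was the brain that stood above the rest. Psmb11 had 2, 0 and 2 counts in KO brains and 3, 0 and 1 counts in WT brains, too few for a fold.

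Set against the subunit that each replaces, the share of Psmb8 in the sum of Psmb8 and Psmb5 TPM was 0.762% ± 0.134 in KO brains and 0.697% ± 0.286 in WT brains (SD, n = 3 each). The share of Psmb9 beside Psmb6 was 0.346% ± 0.080 in KO brains and 0.216% ± 0.131 in WT brains. That of Psmb10 beside Psmb7 was 2.86% ± 0.26 in KO brains and 3.72% ± 1.17 in WT brains. For all 3 pairs, the difference in means was smaller than the SD of the WT brains. Psmb9 overlaps Tap1 on the opposite strand by 212 exon bases, and the strand setting of the counting is not given in the sources used here.

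Of the base ATPases, which form the ring that unfolds substrates, Psmc2 had the largest fold change. It had 71.9, 75.4 and 74.4 CPM in KO brains, against 91.3, 79.3 and 78.6 CPM in WT brains. The KO brains lay close together below the WT brains, of which WT 1 was well above the others, and the gene was not called (log2 fold change -0.17 ± 0.08, edgeR adjusted p = 0.293). Psmd1, a scaffold subunit of the base, had 151.6, 153.0 and 147.0 CPM in KO brains, against 179.2, 160.1 and 162.5 CPM in WT brains. WT 1 was again the highest, and Psmd1 was not called (log2 fold change -0.15 ± 0.07, edgeR adjusted p = 0.269). Psmd1 shares 252 exon bases with Htr2b on the opposite strand.

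In the lid, Psmd7, which pairs with the deubiquitinase subunit Psmd14, had 82.1, 85.3 and 85.7 CPM in KO brains, against 97.0, 93.6 and 91.6 CPM in WT brains. Each KO brain was below each WT brain, by a log2 fold change of -0.16 ± 0.06 that did not pass the adjustment (edgeR adjusted p = 0.209). It was -0.09 with library totals and -0.07 with the midbrain score as a covariate, and in these fits, in WT 1, WT 2, KO 1 and KO 2 alone, and without KO 1, KO 2 or WT 1 it did not pass the unadjusted threshold. Psmd14 itself had a log2 fold change of 0.05 ± 0.07, with a 95% interval of -0.13 to 0.23. Psmd6 and Psmd13, named after their values were seen, had differences of -0.15 ± 0.07 and -0.17 ± 0.08 on the log2 scale and were not called (edgeR adjusted p = 0.282 for Psmd6 and 0.310 for Psmd13). The other 4 lid subunits lay between -0.08 and 0.05.

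The base chaperones were less abundant than the subunits they assemble, at means over all libraries of 65.4 TPM for Psmd5, 28.4 TPM for Psmd9 and 23.6 TPM for Psmd10. Psmd5 had the largest fold change of them, -0.05 ± 0.06 on the log2 scale (edgeR adjusted p = 0.707). Psmc3ip had 10.1, 8.53 and 11.5 CPM in KO brains, against 9.17, 6.86 and 9.28 CPM in WT brains. Its groups overlapped, with a log2 fold change of 0.25 ± 0.17 (edgeR adjusted p = 0.464).

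**Figure D3:**
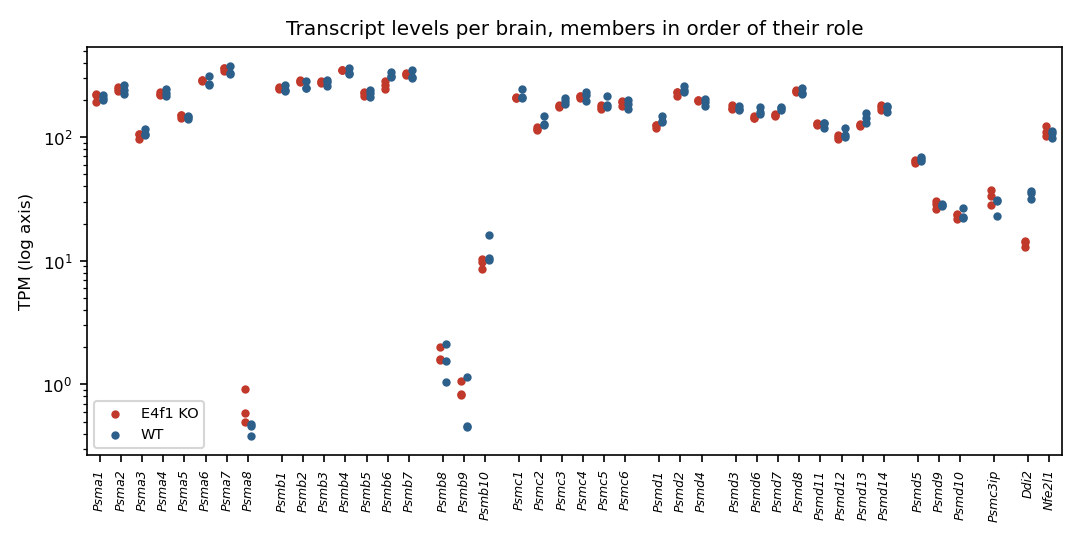
TPM of each member but Psmb11 in each E4f1 KO brain (red) and each WT brain (blue) on a log axis, in order of role. The 31 broadly expressed subunits average between 103.8 and 350.1 TPM, the immunoproteasome subunits and Psma8 lie far below them, and Ddi2 is the member whose groups are visibly apart.

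Summed over all its 19 alpha and beta members, the core particle came to 3606, 3571 and 3522 TPM in KO brains, against 3818, 3385 and 3500 TPM in WT brains. The means were 3566 ± 42.1 TPM in KO brains and 3568 ± 224 TPM in WT brains (SD, n = 3 each). The 17 base and lid subunits came to 2873, 2870 and 2865 TPM in KO brains, against 3226, 2837 and 2969 TPM in WT brains, with means of 2870 ± 4.12 TPM in KO brains and 3011 ± 198 TPM in WT brains. WT 1 was the highest library and WT 2 the lowest in both sums, with all KO libraries between them. For the core and for the base and lid, the difference in means was smaller than the SD of the WT brains.

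Across the WT libraries the 2 sums moved together, and their ratio varied far less than either. Across the KO libraries the base and lid sum varied less, relative to its mean, than the ratio. The ratio of the 14 broadly expressed core subunits to the 17 base and lid subunits, computed after the values were seen, was 1.25, 1.24 and 1.23 in KO brains, against 1.18, 1.19 and 1.18 in WT brains. The groups did not overlap, and the KO mean of 1.24 ± 0.013 was 4.93% above the WT mean of 1.18 ± 0.0057 (SD, n = 3 each). Among single tested genes, 27.6% also had groups that did not overlap. Without Psmb6 the difference was 6.72%. Against the base alone the core was 5.25% higher in KO brains and against the lid alone 4.50% higher, both without overlap, whereas the ratios of alpha to beta ring and of base to lid overlapped between the groups. The ratios to base and to lid reuse the same core sum and are not separate measurements. Gene by gene, the median log2 fold change was 0.04 over the 14 core subunits, 10 of them positive, and -0.08 over the 17 base and lid subunits, 7 of them positive. The base and lid median turned positive without WT 1 (0.0020) and with a midbrain marker score as a covariate (0.0065), and the core median was 9.7e-05 without WT 2, 0.08 without WT 1 and 0.10 with library totals, where the median of all genes was 0.06. The 2 sets also differ in transcript length. The median effective length was 764 bases for the core subunits and 1345 bases for the base and lid subunits, and over all tested genes the median log2 fold change was 0.06 for effective lengths under 1000 bases, 0.04 for 1000 to 2000, -0.0047 for 2000 to 4000 and -0.05 for longer ones. The core median and the base and lid median both lay below that of all genes in the class of their median length. Effective lengths ran from 512 to 2156 bases in the core and from 1058 to 3037 bases in base and lid, so neither set falls in a single class. The part of transcript length in the ratio was not tested.

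**Figure D4:**
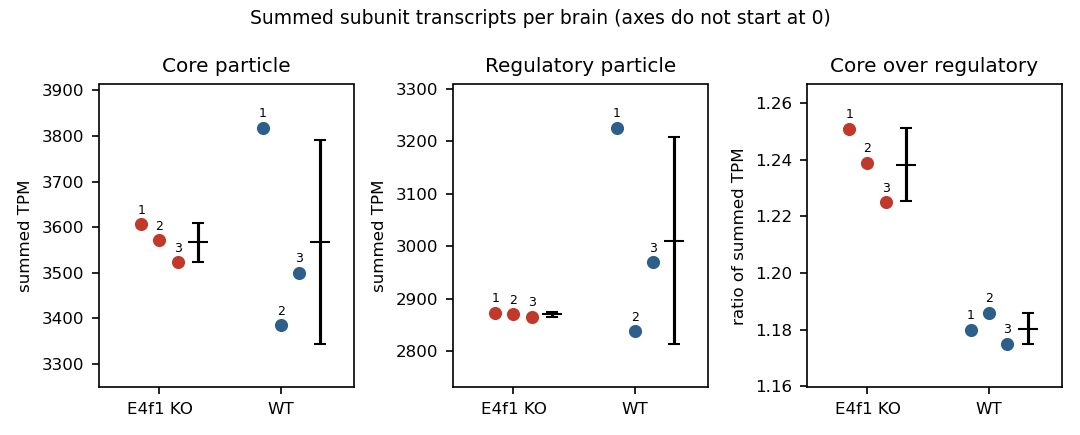
Summed TPM of the core particle and of the base and lid, and the ratio of the 14 broadly expressed core subunits to the 17 base and lid subunits, in each E4f1 KO brain (red) and each WT brain (blue), numbered by replicate, with the mean ± SD as a bar. WT 1 is the highest and WT 2 the lowest in both sums, while the ratio lies between 1.23 and 1.25 in KO brains and between 1.18 and 1.19 in WT brains.

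In brain tissue, fewer cells of a type and less RNA per cell cannot be told apart. The summed TPM of 14 microglia and macrophage markers was 247.4 to 353.0 in KO brains and 135.6 to 225.5 in WT brains, with 2 of them, Cx3cr1 and Fcrls, called higher. The sum of 7 endothelial markers was 268.6 to 367.4 TPM in KO brains and 201.4 to 250.8 TPM in WT brains, and that of 11 erythroid markers was 9827 to 14040 TPM in KO brains and 4403 to 9505 TPM in WT brains. Of the erythroid markers, 8 had a positive log2 fold change and 3, Hba-x, Hbb-y and Hbb-bh1, a negative one. These 3 were by far the highest in WT 1. Hbb-y had 373.7, 1.65 and 10.4 CPM in WT brains. Neuron markers (7 genes) summed to 4291 to 4709 TPM in KO brains and 5368 to 6285 TPM in WT brains, radial glia markers (7 genes) to 2117 to 2279 TPM in KO brains and 2395 to 2837 TPM in WT brains, and 7 meningeal markers to 249.4 to 2487 TPM in KO brains and 315.3 to 1315 TPM in WT brains. The 3 midbrain markers En1, En2 and Pax5 summed to 0.38 to 1.6 TPM in KO brains and 3.45 to 70.3 TPM in WT brains. The sums follow their most abundant genes: 5 neuron markers were lower in mean and 2 (Neurod2 and Neurod6) higher, with 4 lower at an unadjusted p, and 3 radial glia markers were lower and 4 higher, with a median log2 fold change of 0.08 and Fabp7 the one that was lower at an unadjusted p. No marker was at 0 in all libraries. With edgeR, the microglia list was the one of these lists that held called genes, while DESeq2 called 9 microglia, 4 endothelial and 3 erythroid markers higher and 3 neuron, 1 radial glia and 3 midbrain markers lower. The erythroid markers Hbb-bt and Hbb-b2 had the same CPM in every library and are not separate measurements. Both entered the erythroid sum and both are among the DESeq2 calls. With the midbrain score (the mean log2 CPM over those markers) as a covariate, the log2 fold change of Ddi2 was -1.36 ± 0.18, against -1.30 without it. The score itself separated the groups, at -3.05, -1.31 and -1.97 in KO brains and 4.12, 3.18 and -0.19 in WT brains. A fit with it therefore cannot tell genotype from midbrain content. It shows neither stability nor dependence on that content for Ddi2, Psmb6, Psmd7 or the base and lid. The part of the other cell types in the values of the members was not tested.

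Of the genes that build, cap or feed the proteasome, 8 lists were counted. Of their 61 tested genes edgeR called none, beside 1.0% of all tested genes. At an unadjusted p below 0.05, 14 of the 61 were higher and 6 lower, beside 10.3% higher and 9.31% lower of all tested genes. These shares also stand beside the counts of each list below. DESeq2 called 8 of the 61 higher and 3 lower, which is 11 of 61 beside 9.12% of all genes it tested. Of the 5 chaperones that assemble the core, Psmg4 was higher at an unadjusted p, with 10.7, 9.53 and 10.1 CPM in KO brains against 7.76, 7.0 and 8.12 CPM in WT brains (log2 fold change 0.40 ± 0.11, adjusted p = 0.145 with edgeR and 0.0309 with DESeq2). The 5 genes for activators and an inhibitor of the core included Psme2, a subunit of the interferon-inducible activator, at 29.9, 29.7 and 32.1 CPM in KO brains against 25.8, 23.6 and 23.8 CPM in WT brains (log2 fold change 0.33 ± 0.08, adjusted p = 0.107 with edgeR and 0.00752 with DESeq2). The groups of Psmg4 and of Psme2 did not overlap. The median log2 fold change was 0.10 over the core chaperones and 0.04 over the activators.

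Among 10 further proteins bound to the proteasome, 1 was higher and 2 were lower at an unadjusted p, with a list median of -0.01. The lower ones were Zfand2a, an arsenite-inducible proteasome-associated protein (log2 fold change -0.30 ± 0.09, edgeR adjusted p = 0.171), and Ube3c, a ubiquitin ligase (-0.19 ± 0.07, adjusted p = 0.223). Of 5 tested shuttle receptors, which carry ubiquitinated proteins to the proteasome, 3 were higher at an unadjusted p and none lower, with a list median of 0.16. Ubqln4 had a log2 fold change of 0.16 ± 0.06 (edgeR adjusted p = 0.196) and Ubqln1 0.17 ± 0.06 (adjusted p = 0.209). At an unadjusted p, 10.3% of all tested genes were higher and 9.31% lower.

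Genes that bring NFE2L1 out of the endoplasmic reticulum or mark it for degradation had a median log2 fold change of -0.08 over 10 genes, of which 2 were lower at an unadjusted p. Ufd1, a cofactor of the VCP ATPase that extracts proteins from membranes, had 46.3, 45.7 and 46.1 CPM in KO brains, against 56.9, 58.0 and 56.8 CPM in WT brains. The brains of each group were within a narrow band, well apart from the other group. The log2 fold change was -0.31 ± 0.05, with an adjusted p of 0.0611 in edgeR and 2.79e-05 in DESeq2. Sel1l, of the same degradation pathway, had -0.17 ± 0.07 (edgeR adjusted p = 0.234). Vcp had a log2 fold change of -0.07 ± 0.07, with a 95% interval of -0.25 to 0.11.

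Among 8 relatives and partners of NFE2L1, with a median log2 fold change of 0.14, Mafk and Nfe2l2 passed the unadjusted threshold, in opposite directions. Mafk, a small MAF partner, had 12.1, 12.9 and 11.9 CPM in KO brains, against 15.2, 17.4 and 16.7 CPM in WT brains (log2 fold change -0.42 ± 0.09, adjusted p = 0.105 with edgeR and 0.00310 with DESeq2). Nfe2l2, the oxidative stress factor related to NFE2L1, had 20.5, 16.4 and 28.4 CPM in KO brains, against 14.97, 13.3 and 13.9 CPM in WT brains (log2 fold change 0.63 ± 0.20, adjusted p = 0.179 with edgeR and 0.0470 with DESeq2). Neither pair of groups overlapped, and the KO brains of Nfe2l2 were widely spread, with KO 3 the highest.

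The ubiquitin genes and E1 enzymes had a median log2 fold change of 0.12 over 6 genes. Rps27a, which encodes ubiquitin fused to a ribosomal protein, had a log2 fold change of 0.38 ± 0.08 (adjusted p = 0.0951 with edgeR and 0.00591 with DESeq2). Of 12 tested genes of interferon response and antigen presentation, 5 were higher and 1 lower at an unadjusted p, with a median of 0.28. Over all tested genes, 10.3% were higher and 9.31% lower at that threshold. H2-K1, a class I antigen-presenting molecule, had 13.7, 15.2 and 11.0 CPM in KO brains, against 6.46, 5.62 and 4.18 CPM in WT brains, the lowest KO brain lying well above the highest WT brain. Its log2 fold change was 1.30 ± 0.21, with an adjusted p of 0.0529 in edgeR and 4.21e-07 in DESeq2. Irf9, a mediator of interferon signalling, had -0.44 ± 0.11 (adjusted p = 0.130 with edgeR and 0.0109 with DESeq2). The summed microglia and macrophage markers, given above, were also higher in KO brains, and their part in the antigen presentation values was not tested.

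The members were spread over 16 chromosomes, with 8 on chromosome 11 and 5 on chromosome 2. Psmb9 and Psmb8 lie 10864 bases apart on chromosome 17 and Psmb5 and Psmb11 lie 7314 bases apart on chromosome 14. In the first pair both genes were rare, while in the second Psmb5 averaged 226.7 TPM over all libraries and Psmb11 0.013 TPM. Exons of several members overlap a gene of the opposite strand, among them Psmd9 with Gm26745 (1849 bases), Psmb8 with Gm20496 (498 bases), Psmb7 with Nek6 (405 bases), Psmc3ip with Mlx (385 bases), Psmd13 with Sirt3 (342 bases), Psmc3 with Slc39a13 (215 bases) and Psma4 with AY074887 (114 bases), and Psmd1 shares 301 bases with Gm21972 on its own strand. Without the strand setting, reads of the opposite-strand pairs cannot be told apart there. Gm26745, Gm20496 and Gm21972 were not among the genes counted. Mir686, which was counted, overlaps 109 exon bases of Psmb5 on the same strand. Psmb5 had fractional expected counts of 2935.47 in KO 3 and 2266.9 in WT 2.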

How the data were processed

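RNA was extracted from dissected, frozen brains with Trizol and made into libraries with a stranded mRNA kit, per the labels' protocols. STAR (2.5.3a), RSEM (1.2.28), Trimmomatic and FastQC, with builds mm10 and GRCm38, appear in the submitters' processing notes. Their order and settings, the strand setting of counting included, were not given in the sources used. The authors deposited for each gene an expected count, which shares ambiguous read pairs by estimate. The authors also deposited a TPM, scaled to length and to a common total, and an FPKM, scaled to length and depth.

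Expected counts were rounded and tested on the whole table with edgeR (4.0.16, R 4.3.3): filterByExpr, TMM, robust quasi-likelihood F test, two-sided, Benjamini-Hochberg over all tested genes, called at an adjusted p below 0.05. CPM are TMM scaled, and each SE corresponds to its F statistic. The test was checked on simulated counts. The alternatives were DESeq2 (1.42.0), limma-voom and limma on log2(TPM + 1) and log2(TPM + 0.1) (limma 3.58.1, a TPM minimum of 1 in 3 libraries), further scalings and count filters, non-robust estimation, a replicate block, a midbrain score (En1, En2 and Pax5, averaged as log2 CPM) as covariate, 4 libraries with nearby animal numbers alone, each library left out, and erythroid genes and Rn45s left out. Adding Rsc1a1 to Ddi2 was chosen after seeing the data.

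The members and lists were chosen with earlier results of these data known. Named members were Ddi2, Nfe2l1, called members, those with an unadjusted p below 0.05, the 3 highest and 3 lowest by TPM, the tissue-specific subunits, Psmc3ip, and the largest fold change in each other part; of each pathway list, up to 2 genes with the smallest unadjusted p below 0.05. Others are given as single values for their role. Promoters came from RefSeq (GRCm38.p6) and exon overlaps from GENCODE. A further gene that this rule names is not reported here.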

Additional observations from a re-analysis of the deposited data

How the results depend on the processing

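Ddi2 aside, no member was called under any of the 20 alternatives. Scaling by library totals moved the median log2 fold change of all genes to 0.06 and that of the members to 0.094, and leaving out each library gave member medians between -0.02 and 0.06. The other pathway genes called higher, none by edgeR as described, numbered 8 with DESeq2 and 1 each with limma-voom, library totals, no filter on low counts, limma on log2(TPM + 1) and limma on log2(TPM + 0.1); those called lower numbered 3 with DESeq2 and 1 with each limma fit on TPM. FPKM in place of TPM moved the log2 ratio of the sums, KO over WT, to 0.103 for the alpha ring, 0.081 for the constitutive beta ring, 0.014 for the base ATPases, 0.020 for the other base subunits, 0.028 for the lid, 0.045 for the base chaperones, 0.089 for the core and 0.021 for base and lid together; FPKM is not held to a common total. Deviations from the group means correlated at 0.121, 0.173 and 0.016 between same-numbered brains, and at -0.235 to 0.12 between the other KO and WT brains. With 3 brains per group these values cannot decide whether the numbers mark pairs, and they were not taken as pairs. With a replicate block 66 genes were called in place of 159 and, Ddi2 aside, no member. Psmb6 was then the member past the unadjusted threshold. Leaving out a library gave 36 to 82 called genes in all. With the midbrain score as covariate, and with 4 libraries alone, edgeR called 0 genes, while 753 and 1546 passed an unadjusted p below 0.05, so these fits say nothing on the stability of single calls. The cause of these shifts was not tested. Depth limited Psma8, Psmb8, Psmb9 and Psmb11, which had at most 46 counts in a library.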
